A study of Xenopus laevis with 30 samples.

Results

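The genes described are those of Xenopus laevis, the African clawed frog, that encode mitochondrial ribosomal proteins, named mrpl for the large subunit of the mitochondrial ribosome and mrps for the small one. They were taken from the deposited tables by symbol: every gene whose name, or for model IDs whose human symbol, begins with mrpl or mrps and a digit. That gave 93 genes of the 17321 in either table, 93 of 16673 at stage 10.5 (early gastrula) and 91 of 15596 at stage 12 (late gastrula). The 93 genes carry 75 different symbols. Of them 56 encode large-subunit and 36 small-subunit proteins, and mrps36.S encodes a protein since placed in the alpha-ketoglutarate dehydrogenase complex. Despite their names, MRPS18A and MRPS30 sit in the large subunit. The suffixes .L and .S mark the copies of a gene on the long and short chromosomes of this allotetraploid frog, called homeologs.

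Messenger RNA of embryos of the Nasco strain was sequenced in 30 libraries, 15 at each of 2 stages, in a study of how bisected embryos regenerate into twins. At each stage there were 3 libraries of undivided whole embryos, grown in 0.1x Marc's Modified Ringer, and 3 libraries of each kind of half-embryo: left and right, from a sagittal cut, and dorsal and ventral, from a frontal cut. Blastulae (stage 8) were cut in Barth's solution at 1x strength, and the pieces grew on at 0.3x strength. The labels give Marc's Modified Ringer as the culture medium of all samples and do not say whether whole embryos were ever moved to Barth's solution. Unless they were, medium and bisection cannot be told apart in a comparison with whole embryos. The labels name no genetic alteration and give neither the number of embryos in a library nor the clutch behind a replicate. The p-values therefore speak of the scatter among these libraries, part of which may be technical. All comparisons with whole embryos at a stage share the same 3 whole-embryo libraries. Replicate numbers pair the libraries, since each whole-embryo sample is labelled as the control of the half-embryos with its number. The main fits leave this pairing out, so variation shared within a replicate number counts as scatter in them. Their SE, p-values and stability when a library is left out are those of an unpaired fit. Counts from fits blocked on replicate number, which use the pairing, are given beside them.

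The mitochondrial ribosome translates the few messenger RNAs that the mitochondrial genome encodes, which in animals are all for subunits of the respiratory chain and ATP synthase. Its ribosomal RNAs are made in the mitochondrion, while all of its proteins are encoded in the nucleus, translated in the cytosol and imported. Part of the proteins descend from those of the bacterial ribosome and the rest were added in the mitochondrial lineage. The frog egg carries a large store of mitochondria, and mitochondrial DNA is known to be replicated little before later larval stages.

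Reads that fell in listed genes numbered 3532883 to 5813109 per library at stage 10.5 and 2091772 to 5071874 at stage 12, and whole embryos lay at the low end, with 3532883 to 3739329 and 2091772 to 2920488 reads. A mitochondrial ribosomal protein gene had a median of 57 reads per library at stage 10.5 and 42 at stage 12, against 88 and 58 over all listed genes. Genes with few reads therefore carry a larger counting error: 8 members at stage 10.5 and 13 at stage 12 averaged below 10 reads. The labelled dorsal and ventral sides were borne out by their marker genes: 21 of 24 organizer gene copies were called higher in dorsal than in ventral half-embryos at stage 10.5 and 24 of 24 at stage 12, and 16 of 21 and 21 of 22 ventral and epidermal copies were called lower.

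Mitochondrial ribosomal protein mRNAs were present at moderate levels that spanned 125-fold between members at stage 10.5. Levels are given as RPKM, the reads of a gene divided by its length and by the size of the library, which allows comparison between genes of different length. Only genes with an average RPKM above 1 were listed, and the lowest member, mrps12.L, had a mean of 1.075. The span is therefore bounded by that limit and could be wider among unlisted copies. The median member had a mean of 13.2 RPKM over the 15 libraries of stage 10.5, where the median of all listed genes was 7.67, and 13.1 against 6.92 at stage 12. At stage 10.5, 64 of 93 members lay above the median of all genes, and at stage 12, 62 of 91. Large-subunit genes had a median of 14 and small-subunit genes of 12.2 RPKM at stage 10.5, and 13.3 and 11.9 at stage 12. Genes for proteins with a counterpart at the same place in the bacterial ribosome had a median of 13.1 RPKM and those for proteins without one 14.9 RPKM at stage 10.5, and 14.3 and 12.6 at stage 12. MRPS18A and MRPS18B, homologs of a bacterial protein that take up other places in the mitochondrial ribosome, were counted with those without one.

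The highest level belonged to MRPS26 (Xelaev18003694m), a small-subunit protein with no bacterial counterpart, with 153, 141 and 97.1 RPKM in the 3 whole-embryo libraries of stage 10.5 and 180, 142 and 122 at stage 12. mrpl18.L, whose product lies in the central protuberance of the large subunit, followed with 81.7, 81.4 and 81.5 RPKM at stage 10.5, the most even triplet of the leading genes. mrpl44.S, which encodes a large-subunit protein with a ribonuclease III-like fold, was the third with 68.0, 83.2 and 73.1 RPKM. The same 3 genes led at stage 12, and the 5 highest genes held 24.1% of the summed whole-embryo RPKM of the 93 members at stage 10.5 and 23.7% at stage 12. The lowest at stage 10.5 were mrps30.S at 1.35 ± 0.33, mrps12.L at 1.24 ± 0.40 and MRPL57 (LOC100491945.S) at 0.925 ± 0.802 RPKM (SD, n = 3), the last with no read in whole-embryo replicate 1. At stage 12 the lowest were mrpl28.L, mrps11.S and mrpl32.L, with 1.57 ± 0.71, 1.55 ± 1.4 and 1.30 ± 1.46 RPKM (SD, n = 3), within their own spread of each other.

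**Figure D1:**
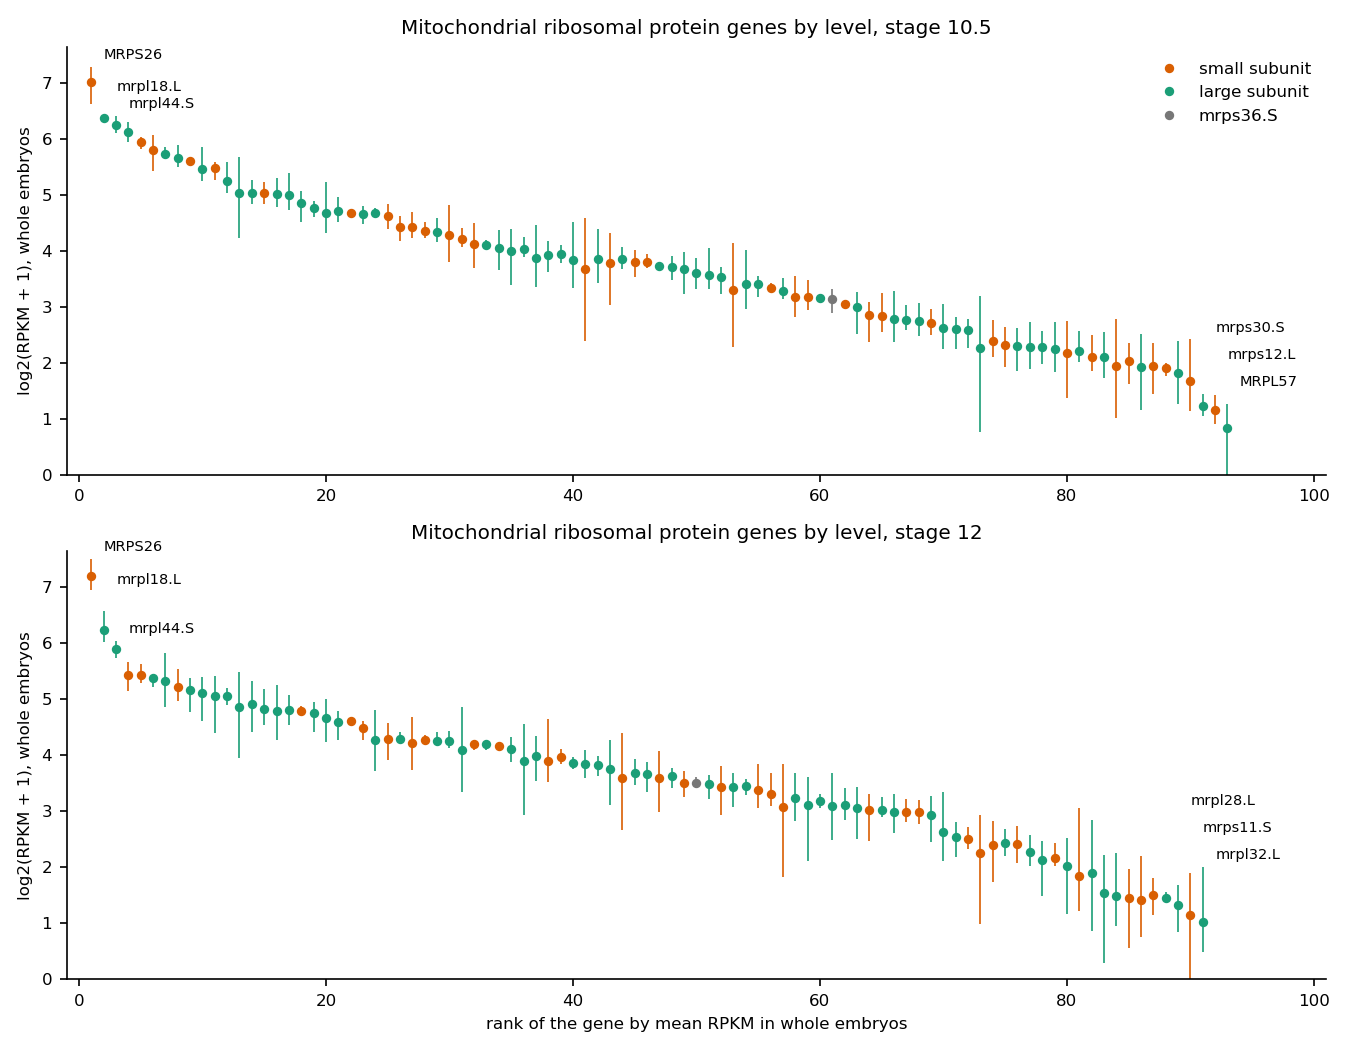
Level of each mitochondrial ribosomal protein gene in whole embryos, as log2(RPKM + 1), against its rank by mean RPKM, at stage 10.5 (top, 93 genes) and stage 12 (bottom, 91 genes). Points are means of the 3 libraries on that scale and lines run from the lowest to the highest library, colours give the subunit, and the 3 highest and 3 lowest genes are named. Small- and large-subunit genes are mixed along the whole range.

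Proteins at functional sites of the ribosome differed widely in their mRNA levels. Of the stalk proteins that recruit translation factors, MRPL12 (Xetrov90025129m.L) stood at 25.4 ± 4.3 RPKM in whole embryos of stage 10.5 and 17.2 ± 1.1 at stage 12 (SD, n = 3), whereas mrpl10.S, whose product anchors MRPL12, stood at 4.0 ± 1.47 and 8.12 ± 0.76. The gene of the other stalk-base protein, mrpl11, had copies at 24.4 ± 3.0 (.L) and 34.3 ± 16.04 RPKM (.S) at stage 10.5. Around the peptidyl transferase centre, mrpl3.S had 69.0 ± 8.8 RPKM and MRPL2 (Xelaev18026440m) 5.76 ± 1.48. mrps12.S, for the decoding centre of the small subunit, had 5.58 ± 1.10, and mrpl41.L, for a large-subunit protein without bacterial counterpart, 8.73 ± 1.47 RPKM. The 3 paralogs that descend from bacterial ribosomal protein S18 ranked mrps18b.L (43.5 ± 5.2), MRPS18A (26.2 ± 2.8) and mrps18c.1 (8.12 ± 1.76), with the second copies mrps18b.S and mrps18c.S at 7.31 ± 0.14 and 4.30 ± 1.30 RPKM. In whole embryos of stage 10.5 none of these spreads bridged the gap between mrps18b.L, MRPS18A and mrps18c.1. At stage 12 those of mrps18b.L (36.6 ± 7.6) and MRPS18A (27.5 ± 9.5) overlapped. The order of these 2 also did not hold in half-embryos of stage 10.5. There MRPS18A had means of 44.6 (left) and 41.7 RPKM (right), and mrps18b.L 44.0 and 43.4.

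The first comparison asked which of these genes changed when an embryo was halved, setting the mean of the 4 half-embryo groups against whole embryos. At stage 10.5, 4 members rose and 2 fell in half-embryos among 93, or 6.45%, which is close to the 7.69% of all 16672 genes that were called in either direction (2.38% higher and 5.31% lower). Genes were called at an adjusted p of 0.05 or less from limma on log2(RPKM + 1), adjusted by Benjamini and Hochberg over all genes, and differences in log2 or as folds are on that scale, which understates the change of low genes. The risers were MRPS18A, mrpl27.L, mrps16.L and mrpl48-like.S, and the 2 that fell were MRPL16 (LOC101731117.S) and mrpl1.L. In bulk samples, fewer cells of a type and less RNA per cell cannot be told apart. The other 87 were not called. A fit blocked on replicate number called 12 members higher and 3 lower (16.1%), and 30.4% of all genes (10.1% higher and 20.3% lower). Fits that left out 1 library were run without the block only, so they do not show how stable the blocked calls are. Without whole-embryo replicate 1 the count of called members was 3, and without whole-embryo replicate 3 it was 1, MRPS18A. Fewer controls weaken the test of every gene, and the share of all genes called in these fits is not given. The lower counts are therefore no result about these genes in particular.

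MRPS18A (Xelaev18026426m), one of the S18 paralogs and a large-subunit protein, had 23.2, 28.7 and 26.7 RPKM in the whole-embryo libraries and between 38.2 and 50.5, with a median of 42.0, in the 12 half-embryo libraries. No half-embryo library overlapped the whole embryos, and the 4 half-embryo groups had similar means of 44.6 (left), 41.7 (right), 44.1 (dorsal) and 40.2 RPKM (ventral). The difference was 0.69 ± 0.09 in log2 (SE), 1.61-fold, at a limma adjusted p of 0.00308. It was called without each of the 15 libraries in turn, at adjusted p from 0.00422 to 0.0267. Its paralogs gave -0.16 to 0.04 in log2 at this stage with adjusted p of 0.523 or more, namely mrps18b.L 0.04 ± 0.09, mrps18b.S -0.16 ± 0.14, mrps18c.1 -0.01 ± 0.16 and mrps18c.S -0.02 ± 0.22 (SE).

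MRPL16, the counterpart of a bacterial large-subunit protein near the site where aminoacyl-tRNA binds, moved the other way. It had 56.4, 50.2 and 49.8 RPKM in whole embryos and 26.5 to 39.0 RPKM, median 33.1, in half-embryos, again without overlap. The log2 difference was -0.64 ± 0.10 (SE; fold 0.643) with a limma adjusted p of 0.00649, and without whole-embryo replicate 3 the adjusted p was 0.0516. mrpl1.L, for the protein of the L1 stalk, through which tRNA leaves the ribosome, had 23.2, 23.9 and 26.1 RPKM in whole embryos and 11.9 to 19.98 RPKM, median 16.5, in half-embryos. The groups did not overlap, and mrpl1.L was lower by -0.56 ± 0.15 in log2 (SE) at a limma adjusted p of 0.0409. Without the block this call was the least stable of the 6, and held in 5 of the 15 fits that left out 1 library. The limma adjusted p was 0.0904, 0.0972 and 0.180 without whole-embryo replicates 1, 2 and 3. It lay between 0.0519 and 0.0610 without left replicate 2 or 3, right 3, dorsal 2 or 3, or ventral 2 or 3. The homeolog mrpl1.S changed by -0.15 in log2 and was not called.

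The other 3 risers lay at lower levels and their groups touched. mrpl27.L encodes the counterpart of bacterial L27, whose end reaches into the peptidyl transferase centre, and had 8.71, 5.48 and 4.18 RPKM in whole embryos against 6.52 to 19.5, median 12.9, in half-embryos. Its largest difference was in dorsal half-embryos, with 16.8, 13.03 and 19.5 RPKM, and right replicate 2, at 6.52, lay inside the whole-embryo range. mrps16.L, for a small-subunit protein whose bacterial counterpart takes part in subunit assembly, had 5.53, 8.53 and 4.82 RPKM in whole embryos and 8.37 to 17.4, median 10.9, in half-embryos, where only ventral replicate 2 lay below the highest whole embryo. mrpl48-like.S, for a protein of the central protuberance added in mitochondria, had 11.5, 8.34 and 12.0 RPKM in whole embryos and 11.7 to 20.7, median 18.8, in half-embryos, and only dorsal replicate 2 reached down into the whole-embryo range.

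In limma the log2 differences were 0.92 ± 0.21 for mrpl27.L (SE; adjusted p = 0.0203), 0.83 ± 0.21 for mrps16.L (adjusted p = 0.0299) and 0.69 ± 0.17 for mrpl48-like.S (adjusted p = 0.0321). Each was positive within all 3 replicate numbers. In the fits without the block, each call was lost without some single whole-embryo libraries, which also left fewer controls. mrpl27.L had a difference of 0.88 (limma adjusted p = 0.0703) without replicate 2 and 0.72 (0.143) without replicate 3. mrps16.L had 0.77 (0.103) without replicate 1 and 0.69 (0.172) without replicate 3. mrpl48-like.S had 0.75 (0.0695), 0.54 (0.137) and 0.78 (0.0940) without whole-embryo replicates 1, 2 and 3. Without dorsal replicate 3 it had 0.67 (0.0513). For mrpl48-like.S the difference thus shrank without whole-embryo replicate 2 but not without replicate 1 or 3. mrps16.L and mrpl27.L rest on medians of 24 and 29 reads per library.

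**Figure D2:**
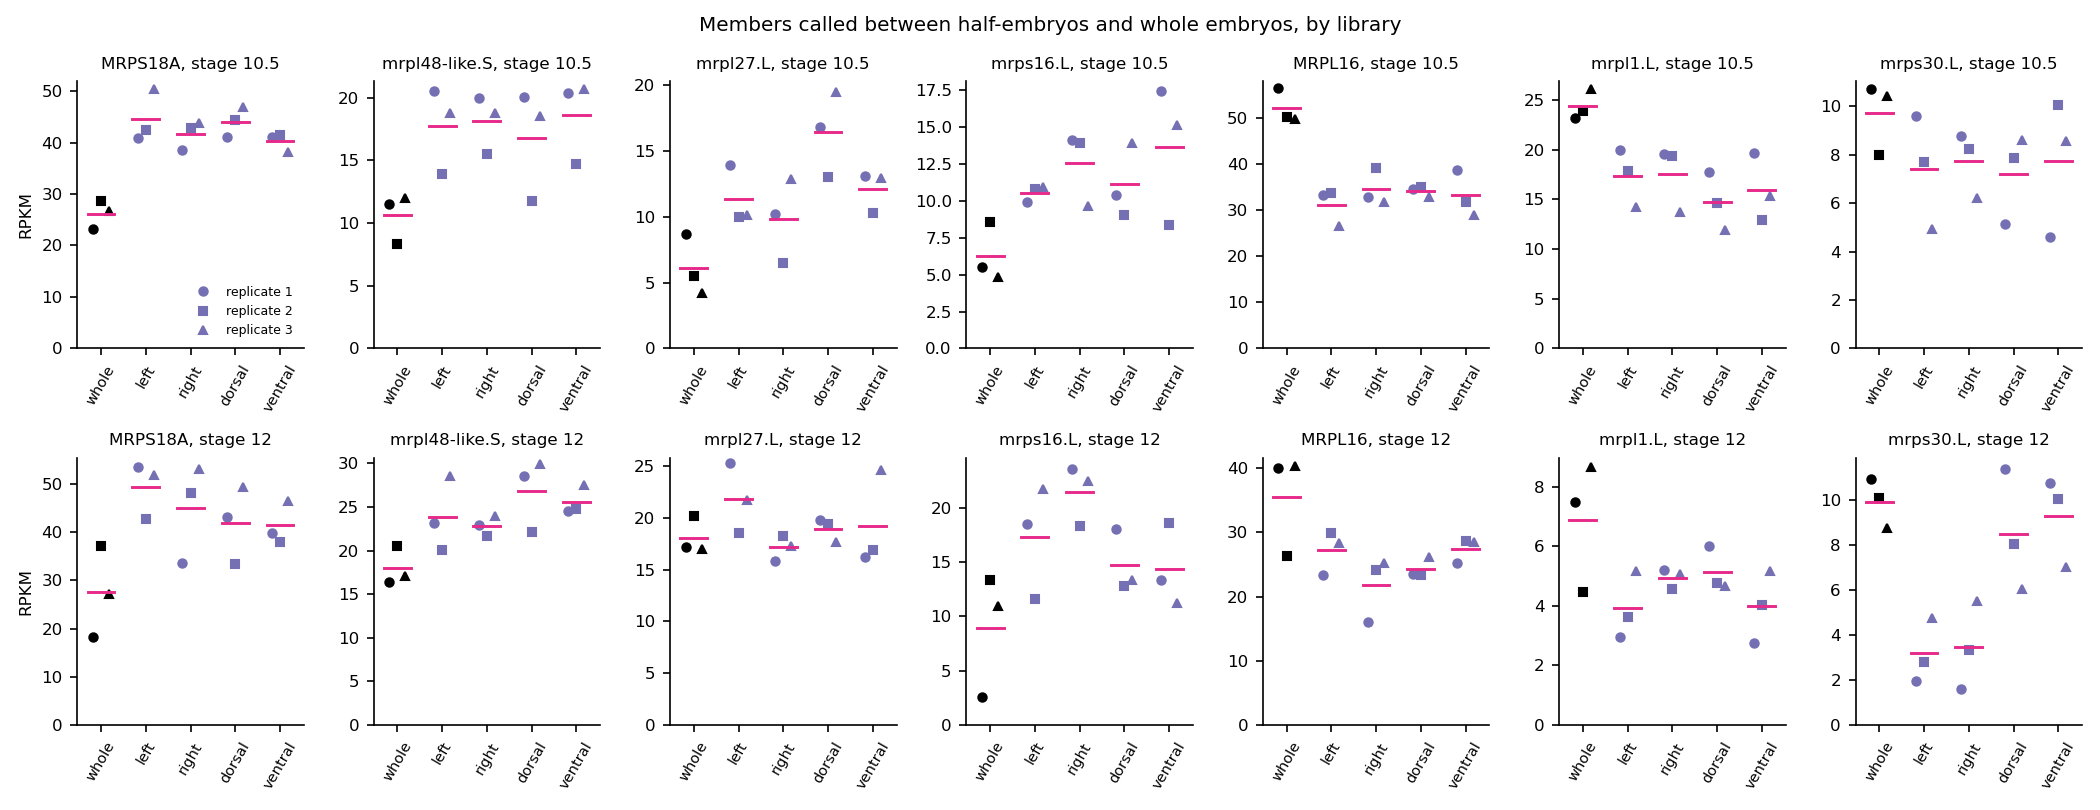
RPKM in every library of the 7 members called in at least 1 comparison with whole embryos, at stage 10.5 (top) and stage 12 (bottom). Black symbols are whole embryos and violet ones half-embryos, shapes give the replicate number, and bars are group means. MRPS18A and MRPL16 separate whole from half-embryos at stage 10.5, and mrps30.L is low only in left and right half-embryos at stage 12.

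Below the threshold, the members as a group lay slightly higher in half-embryos at stage 10.5. Their median log2 difference was 0.10, with 66 of 93 (71.0%) above 0, whereas the median of all genes was -0.07, with 40.4% above 0. The 56 large-subunit members had a median of 0.12 and the 36 small-subunit members 0.03. These medians hold no test, and both moved with the scaling: with upper-quartile scaling they were 0.16 for members and -0.02 for all genes, and with quantile normalization 0.16 and 0.00. The calls over all genes, 396 higher and 886 lower as deposited, became 526 and 751 with upper-quartile scaling and 524 and 594 with quantile normalization. With the replicate block, 9 further members were called: mrpl4.L (0.86 ± 0.18), MRPL52 (Xelaev18007046m, 0.69 ± 0.21), mrpl21.L (0.55 ± 0.17), mrpl20.L (0.52 ± 0.18), mrpl37.L (0.51 ± 0.17), mrps24.S (0.43 ± 0.15), mrpl17.S (0.41 ± 0.12) and mrpl40.S (0.21 ± 0.07) were higher, and MRPL2 (-0.53 ± 0.18) lower (log2, SE of the blocked fit), at limma adjusted p from 0.0047 to 0.0436.

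**Figure D3:**
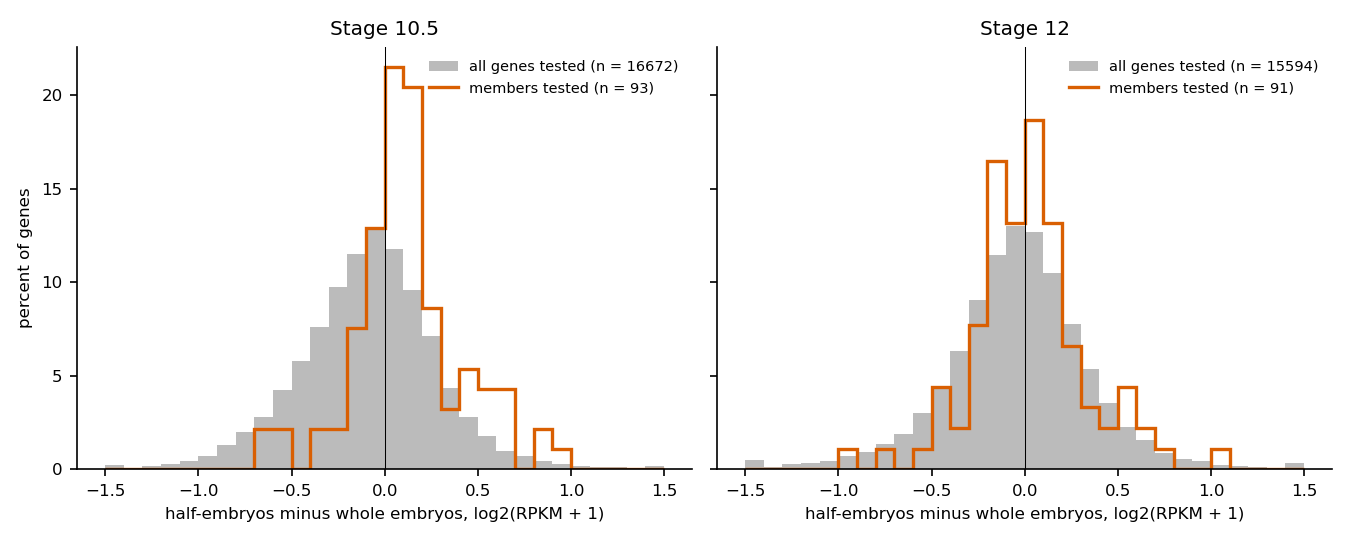
Distribution of the log2(RPKM + 1) difference between half-embryos and whole embryos at stage 10.5 (left) and stage 12 (right), as the percent of genes in bins 0.1 wide; values beyond 1.5 are counted in the end bins. The orange line is the mitochondrial ribosomal protein genes and grey is all genes tested. At stage 10.5 the members' median is 0.10 and that of all genes -0.07.

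Each kind of half-embryo set against whole embryos at stage 10.5 gave few calls, and MRPS18A and MRPL16 were called in every one. In sagittal half-embryos (the mean of left and right) MRPS18A was higher by 0.70 ± 0.10 and MRPL16 differed by -0.66 ± 0.11 (log2, SE), the only calls among 93 (2.15%), where 2.71% of all genes were called (0.876% higher, 1.84% lower). mrpl48-like.S had the next smallest p, at 0.71 ± 0.19 (adjusted p = 0.0617; 0.000515 with the block). In dorsal half-embryos MRPS18A (0.73 ± 0.11), mrpl27.L (1.32 ± 0.26) and MRPL16 (-0.60 ± 0.13) were called, 3.23% against 4.23% of all genes (1.01% higher, 3.21% lower). In ventral half-embryos MRPS18A (0.60 ± 0.11) and MRPL16 (-0.64 ± 0.13) were called, 2.15% against 2.06% of all genes (0.654% higher, 1.4% lower), followed by mrps16.L at 0.98 ± 0.26 (adjusted p = 0.0733; 0.0265 with the block). limma adjusted p-values of the calls ran from 0.00636 to 0.0286, and with the replicate block the counts rose to 11, 9 and 7 members, where 22%, 25.3% and 17.4% of all genes were called. MRPS18A in the sagittal comparison was called without each library in turn. The other calls each lost significance without 2 to 5 of the 15 libraries, among them whole-embryo replicate 3 in every case, without which limma's adjusted p was 0.100 (sagittal) for MRPL16, 0.0547 (dorsal) and 0.0667 (ventral) for MRPS18A, 0.0893 (dorsal) and 0.0873 (ventral) for MRPL16, and 0.0927 (dorsal) for mrpl27.L.

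At stage 12, in the fit without the block, no member was called between the mean of the half-embryo groups and whole embryos, where 2.78% of all 15594 genes were. An unadjusted p of 0.05 or less was reached by 12 of 91 members (13.2%) and by 19.9% of all genes, and the members' median was 0.01 in log2. The members with the smallest p were again MRPS18A, mrpl48-like.S and mrps16.L. MRPS18A had 18.2, 37.2 and 27.3 RPKM in whole embryos and 33.4 to 53.6, median 44.8, in half-embryos, a difference of 0.71 ± 0.19 in log2 (SE; limma adjusted p = 0.0609). Whole-embryo replicate 2, at 37.2, lay inside the half-embryo range, and without that library the difference was 0.95 with an adjusted p of 0.0207; without right replicate 1 it was called too, at 0.0430. Without whole-embryo replicate 1, at 18.2 the lowest, the difference was 0.45 with an adjusted p of 0.346. It was also called with upper-quartile scaling (0.0488) and quantile normalization (0.0483).

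mrpl48-like.S had 16.4, 20.6 and 17.1 RPKM in whole embryos of stage 12 and 20.1 to 29.9 in half-embryos (0.44 ± 0.12 in log2, SE; limma adjusted p = 0.0742). mrps16.L had 2.54, 13.3 and 10.9 RPKM in whole embryos, the first from 3 reads, and 11.2 to 23.5 in half-embryos (1.05 ± 0.33, SE; adjusted p = 0.0982; 0.0406 without whole-embryo replicate 2). Without whole-embryo replicate 1 its difference was 0.42 (adjusted p = 0.472). MRPL16 was lower in the mean, with 35.6 ± 8.0 RPKM in whole embryos (SD, n = 3) and 25.2 ± 3.7 in half-embryos (SD, n = 12), but whole-embryo replicate 2, at 26.3, lay among the half-embryos. With the replicate block 4 members were called at this stage (4.4%, against 12.9% of all genes): MRPS18A, mrpl48-like.S and mrpl3.S (0.52 ± 0.15) higher and MRPL16 (-0.47 ± 0.14) lower (log2, SE of the blocked fit). The change of the half-embryo difference between stages was called for no member and no gene in limma without the block; 7 of 91 members (7.69%) and 7.25% of all genes had an unadjusted p of 0.05 or less, the smallest for mrpl27.L (-0.84 ± 0.25; adjusted p = 0.350), MRPL52 (Xelaev18007046m) and mrpl47.L. With the block 1.1% of all genes and no member were called.

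At stage 12 mrps30.L fell in sagittal half-embryos, the 1 member called of 91 (1.10%), against 1.38% of all genes (0.731% higher, 0.648% lower). Its product, MRPS30, is a large-subunit protein without bacterial counterpart. It had 10.9, 10.1 and 8.74 RPKM in whole embryos, 1.97, 2.79 and 4.78 in left and 1.59, 3.33 and 5.51 in right half-embryos, whereas dorsal half-embryos had 11.4, 8.07 and 6.07 and ventral ones 10.8, 10.1 and 7.03. All 6 left and right libraries lay below all 9 others. The difference from whole embryos was -1.41 ± 0.29 in log2 (SE; fold 0.377; limma adjusted p = 0.0386), and that from dorsal and ventral half-embryos was -1.24 ± 0.23 with an adjusted p of 0.117, past the threshold in neither fit (0.125 with the block).

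The call for mrps30.L held without 7 of the 15 libraries. Without left replicate 1 or 2, right 2, dorsal 3, ventral 2 or whole-embryo replicate 2 limma's adjusted p lay between 0.0503 and 0.0692, and without whole-embryo replicates 1 and 3 it was 0.188 and 0.111, at differences between -1.57 and -1.24 in log2 over all 15. At stage 10.5 the gene had 9.70 ± 1.5 RPKM in whole embryos (SD, n = 3) and 7.58 ± 1.72 in left and right half-embryos (SD, n = 6), and was not called. Its homeolog mrps30.S stood at 1.74 ± 0.17 RPKM in whole embryos of stage 12 and at 2.03 ± 0.67 over the 12 half-embryo libraries, at a median of 8 reads. Those libraries include dorsal and ventral half-embryos, so this mean cannot show whether mrps30.S fell in left and right ones.

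In the remaining comparisons with whole embryos at stage 12 no member was called. Dorsal half-embryos gave 9 members with an unadjusted p of 0.05 or less (9.89%) and ventral ones 8 (8.79%), against 15.2% and 18.1% of all genes at the same threshold. After adjustment 0.814% and 3.95% of all genes were called. The smallest p in both belonged to mrpl48-like.S, higher by 0.55 ± 0.16 in dorsal and 0.49 ± 0.16 in ventral half-embryos (log2, SE; limma adjusted p = 0.117 and 0.105), with no overlap with whole embryos in either. It was the 1 member called with the replicate block in each (adjusted p = 0.0354 and 0.0393), where 6.68% and 11.1% of all genes were called. mrps22.L (-0.56 ± 0.18) and mrpl3.S (0.64 ± 0.22) followed in dorsal half-embryos, and MRPS18A (0.62 ± 0.24) and mrpl1.L (-0.65 ± 0.25) in ventral ones. In sagittal half-embryos MRPS18A gave 0.79 ± 0.21 (adjusted p = 0.0796; 0.0254 with the block, which called 2 members, 8.48% of all genes being called), and mrps16.L followed with 1.23 ± 0.36 (adjusted p = 0.115).

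The second question was whether these genes differ along the dorsal-ventral axis. No member was called between dorsal and ventral half-embryos at either stage, with or without the replicate block, while 0.99% and 3.76% of all genes were, and 2.17% and 5.76% with the block. Each stage had 1 member with an unadjusted p of 0.05 or less (1.08% and 1.10%, against 4.88% and 10.9% of all genes), and members ranged from -0.56 to 0.40 in log2 at stage 10.5 and from -0.75 to 0.49 at stage 12, with a median SE of 0.22 and 0.25. At stage 10.5 mrpl42.S had the smallest p, with 9.77 RPKM dorsally and 12.1 ventrally (-0.29 ± 0.12; limma adjusted p = 0.912), followed by mrpl33.L (-0.46 ± 0.24) and mrpl34.L (-0.44 ± 0.25). At stage 12 they were mrpl22.L with 8.59 and 12.9 RPKM (-0.49 ± 0.23; adjusted p = 0.444), mrps2.S (-0.35 ± 0.17) and mrpl34.L (-0.51 ± 0.25). The change of the dorsal-ventral difference between stages was called for no member and for no gene (0.0268% of all genes and no member with the block), and no member had an unadjusted p of 0.05 or less. The smallest p were those of mrpl22.L (-0.49 ± 0.27), mrpl20.L (-0.70 ± 0.39) and mrpl14.L (0.57 ± 0.33).

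Left and right half-embryos gave no call among these genes. No gene of any kind was called between them at either stage, with or without the replicate block, and 1 member at each stage had an unadjusted p of 0.05 or less (1.08% and 1.10%, against 0.642% and 1.4% of all genes). Those were mrpl39.L at stage 10.5, with 8.47 RPKM in left and 5.39 in right half-embryos (0.66 ± 0.29 in log2, SE), which lay the other way in replicate 1, and mrpl51.L at stage 12, with 14.6 and 23.4 RPKM (-0.66 ± 0.29), lower on the left in all 3 replicates. Their limma adjusted p was 1 at both stages. mrpl33.L (0.49 ± 0.24) and MRPS5 (LOC100494239.L, -0.23 ± 0.13) followed at stage 10.5, and MRPL9 (Xelaev18002620m, -0.54 ± 0.26) and mrpl27.L (0.32 ± 0.17) at stage 12. The plane of the cut, sagittal against frontal, gave no call either, where 0.024% and 0.0128% of all genes were called (0.078% and 0.0128% with the block). At stage 10.5, 5 members (5.38%, against 2.68% of all genes) and at stage 12, 3 (3.30%, against 4.03%) had an unadjusted p of 0.05 or less, led by mrps31-like.S (-0.29 ± 0.10), mrps17.L (0.16 ± 0.07) and mrpl14.L (0.32 ± 0.13) at stage 10.5 and by mrps30.L, mrps14.S (-0.38 ± 0.15) and mrps22.L (0.28 ± 0.13) at stage 12.

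The levels of whole embryos at the 2 stages can be set side by side but were not tested, since the tables were normalized separately. Folds between stages are ratios of mean RPKM, with no pseudocount. Of the 91 members in both tables, 57 were lower and 34 higher at stage 12. Of all 14948 shared genes, 9711 were lower and 5237 higher. The median ratio, stage 12 over stage 10.5, was 0.913 for members and 0.817 for all shared genes. Lower by 2-fold or more were 12 members (13.2%), against 19.9% of all shared genes. The widest gaps were those of mrpl1.L, from 24.4 ± 1.5 to 6.86 ± 2.17 RPKM, mrps17.L, from 60.7 ± 5.0 to 18.3 ± 6.2, and MRPL2, from 5.76 ± 1.48 to 2.01 ± 1.52 (SD, n = 3). All 12 encode proteins with a counterpart at the same place in the bacterial ribosome, of which there are 55 among the 91 (MRPS18A and the mrps18b copies not included). They make up 21.8% of those 55, near the 19.9% of all shared genes, so this is no particular fall of that class. The 2 classes of members were not tested against each other. Both copies of mrpl1 and of mrpl3 are among the 12. Several others rest on few reads at stage 12, such as mrpl28.L, mrps11.S and mrpl32.L, with whole-embryo means of 1.57, 1.55 and 1.30 RPKM. Higher by 2-fold or more were 7 members (7.69%, against 6.53% of all genes), all of the large subunit. That subunit has 56 of the 91 members, of which 7 others were lower by 2-fold or more, and the subunits were not tested. Among them were mrpl27.L, from 6.12 ± 2.34 to 18.1 ± 1.8 RPKM, and mrpl14.L, from 16.2 ± 0.9 to 40.4 ± 3.6, and the others were MRPL57, which rests on few reads, mrpl47.L, MRPL52 (Xelaev18007046m), mrpl21.L and mrpl10.S. The other model of MRPL52, Xelaev18010239m, went the other way. It had 14.1 ± 5.3 RPKM at stage 10.5 and 7.60 ± 2.63 at stage 12 (SD, n = 3), so a rise of MRPL52 as a whole is not shown. mrpl1.L, lower at stage 12 in whole embryos, was also called lower in half-embryos of stage 10.5, and mrpl27.L was higher in both. Both differences are measured from the same 3 whole-embryo libraries of stage 10.5. They are therefore not independent, since scatter in those libraries moves both the same way.

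Homeolog copies of several members differed in level, and how often copies differ over all listed pairs was not counted. Both copies were listed under 1 name for 12 genes at stage 10.5, and in 6 of them the copies differed by 2-fold or more in mean log2 level; .L was higher in all 15 libraries for 2 genes and .S for 5. At stage 12 there were 10 such genes, since mrps11.L and mrps12.L were listed only at stage 10.5, with 1 gene higher in .L and 5 in .S in all 15 libraries. The folds that follow are plain ratios of mean RPKM. The widest gap was in mrpl3, with 4.92 RPKM for .L and 72.4 for .S at stage 10.5 (14.7-fold) and 2.05 and 44.5 at stage 12 (21.7-fold). mrps18b leaned the other way, with 44.4 for .L and 6.68 for .S at stage 10.5 (6.66-fold) and 34.6 and 6.26 at stage 12, and MRPS25 (LOC100494871) had 2.81 and 17.6 at stage 10.5. At stage 12 mrpl32, with 1.25 and 15.6 RPKM, stood second. The sources used here do not say how reads that match both copies were assigned, so levels of near-identical copies, and of the symbols with several model IDs, are uncertain.

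The copies were nearest to each other in mrps11, mrps2 and mrpl11 at stage 10.5, with log2 differences (.L minus .S) of -0.18 ± 0.65, -0.19 ± 0.19 and -0.19 ± 0.58, and in mrpl1, mrpl11 and mrps31-like at stage 12, with 0.03 ± 0.40, -0.28 ± 0.72 and 0.28 ± 0.53 (SD over 15 libraries). For mrpl11 that near balance was a mean over unlike replicates. In the 5 libraries of replicate 2 at stage 10.5 the .L copy was higher in every one, by 0.36 to 0.71 in log2, whereas it was lower in every library of replicates 1 and 3, by means of -0.58 in both. At stage 12 the means were 0.60 for number 2, -0.48 for number 1 and -0.95 for number 3. The .S copy carried the difference: mrpl11.S had 41.3 ± 5.4, 19.6 ± 1.9 and 44.2 ± 6.3 RPKM in numbers 1, 2 and 3 at stage 10.5 and 30.01 ± 4.87, 17.1 ± 2.9 and 39.9 ± 2.2 at stage 12 (SD over 5 libraries).

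**Figure D4:**
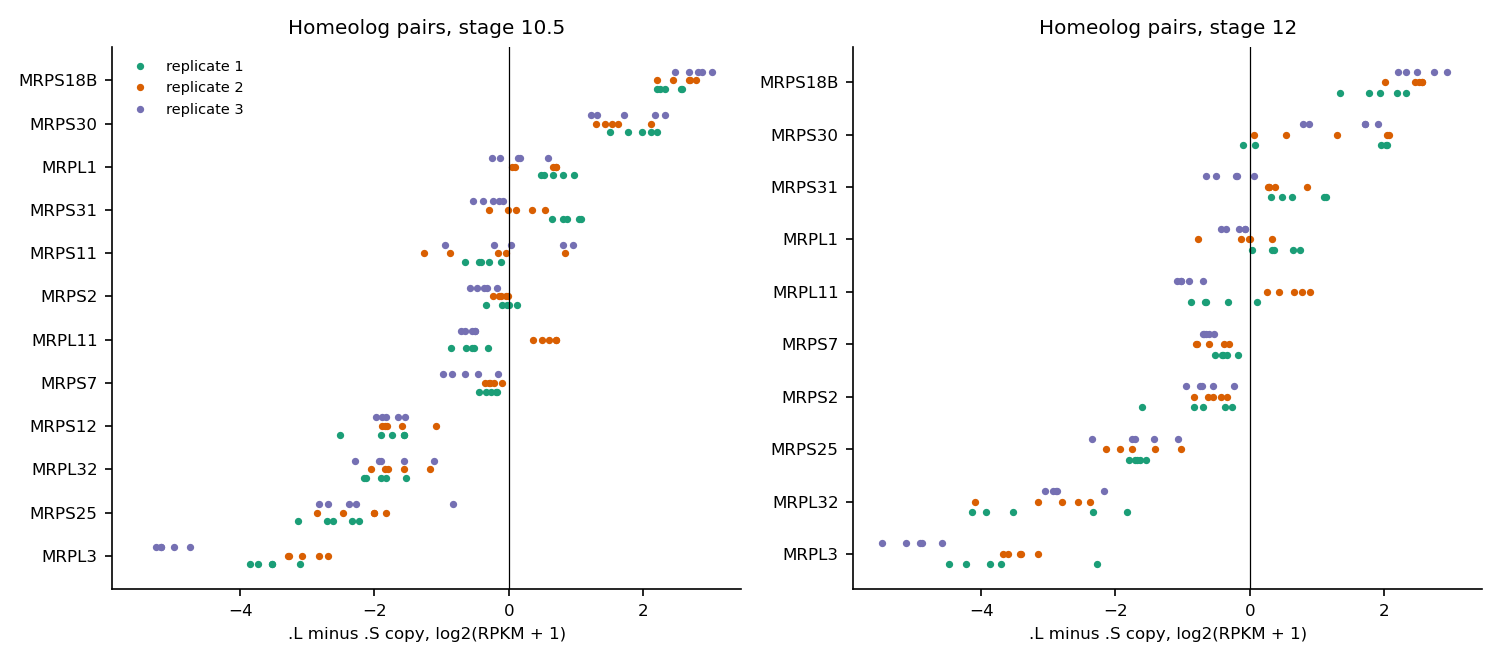
Difference between homeolog copies, .L minus .S in log2(RPKM + 1), in each of the 15 libraries of stage 10.5 (left, 12 genes) and stage 12 (right, 10 genes), coloured by replicate number. Points right of 0 are libraries in which .L was higher. MRPL3 lies far to the left and MRPS18B to the right in all libraries, and in MRPL11 replicate 2 stands to the right of 0 at both stages.

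For 54 of 93 members at stage 10.5 (58.1%) and 42 of 91 at stage 12 (46.2%), more of the variance lay between replicate numbers than between groups, as it did for 56.0% and 47.7% of all genes. Over the 93 members at stage 10.5 a median of 32.8% of a gene's variance lay between the 3 numbers and 22.4% between the 5 groups. At stage 12 the medians were 26.6% and 24.0%. Over all genes they were 36.5% between numbers and 27.1% between groups at stage 10.5, and 27.4% and 28.9% at stage 12. These shares are raw, and noise alone gives 5 groups a larger share than 3 numbers. A share between groups is therefore no measure of a group effect. The clearest, picked after their values were seen, was mrps27-like.L, for a small-subunit protein, at 14.7 ± 0.9, 25.2 ± 1.7 and 6.69 ± 1.72 RPKM in numbers 1, 2 and 3 of stage 10.5 (SD over 5 libraries). It had 15.3 ± 3.3, 23.5 ± 4.4 and 5.92 ± 1.31 at stage 12, the same order, and the ranges of the numbers did not overlap at stage 10.5. mrpl3.L had 6.06 ± 1.36, 7.61 ± 1.53 and 1.08 ± 0.36 RPKM at stage 10.5 and 2.13 ± 0.81, 3.59 ± 0.42 and 0.430 ± 0.359 at stage 12, low in number 3 in every group. mrps35.L was high in number 2 instead, with 1.80 ± 0.39, 4.80 ± 0.95 and 1.62 ± 0.47 RPKM at stage 10.5 and 1.04 ± 0.70, 4.78 ± 0.79 and 0.948 ± 0.401 at stage 12. The 3 numbers fell in the same order at both stages in 30 of 91 members (33.0%) and in 31.7% of all genes; whether equal numbers at the 2 stages share parents is not stated in the labels.

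**Figure D5:**
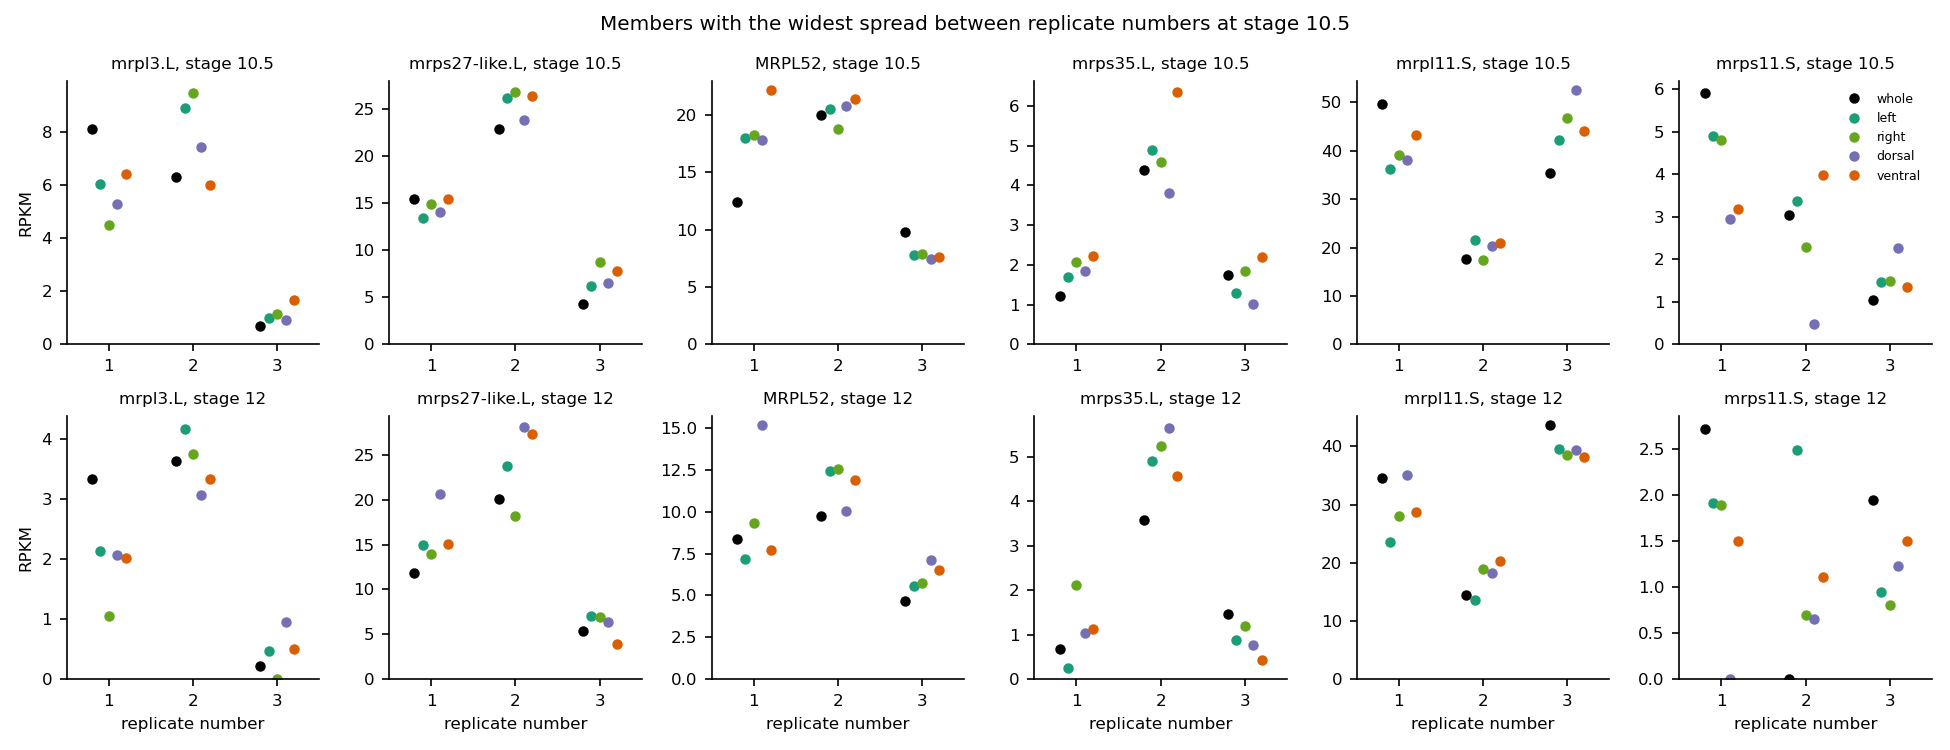
RPKM of the 6 members whose mean log2(RPKM + 1) differed most between replicate numbers at stage 10.5, in each library, by replicate number (x axis) and group (colour), at stage 10.5 (top) and stage 12 (bottom). mrps27-like.L is highest in number 2 and lowest in number 3 in all groups at both stages, and mrpl11.S is lowest in number 2.

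Genes of other mitochondrial functions and of the cytosolic ribosome were taken from lists of gene names, and a few of them were called in half-embryos at stage 10.5. Their counts stand beside 2.38% of all genes higher and 5.31% lower, or 10.1% and 20.3% with the replicate block. Of nuclear-encoded respiratory chain subunits, with which the mitochondrial translation products assemble, 14 rose and 0 fell among 130 (median 0.28 in log2), led by cox7a2.1 (0.74 ± 0.11), ndufa10.L (0.89 ± 0.13) and ndufa11.L (0.90 ± 0.15; SE). With the replicate block 46 rose and 1 fell. Of 151 cytosolic ribosomal protein genes, 2 rose and 0 fell (median 0.28), rps16.L and rpl8.S, and with the block 79 rose; the median of all genes was -0.07. Of 46 genes for protein import into mitochondria, 2 rose, tomm70a.S (0.62 ± 0.12) and the model of TOMM7 (Xetrov90005341m.L, 0.87 ± 0.24), and with the block 9 rose and 2 fell. Of 26 genes for the mitochondrial genome and its transcription, 3 fell, top1mt-like.L, for the mitochondrial topoisomerase, GABPB2 (Xelaev18001265m), for a subunit of a transcription factor, and polg.L, for the mitochondrial DNA polymerase (-0.69 ± 0.17); with the block 6 fell.

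Of 23 genes for assembly of the mitochondrial ribosome and ribosomal RNA modification 1 fell, mterfd1-like.S (-0.46 ± 0.12), and with the block 4 rose and 2 fell. None of 17 translation factors, 13 mitochondrial aminoacyl-tRNA synthetases and 8 ribosomal proteins under other names was called, and with the block 1 rose in each list and 2 translation factors fell. At stage 12, where 1.39% of all genes were higher and 1.39% lower, the counts were 2 of 130 respiratory chain subunits and 3 of 151 cytosolic ribosomal protein genes higher, 1 of 22 genome and 1 of 24 assembly genes lower, and 0 of the 45 import, 17 translation factor, 14 synthetase and 8 otherwise named genes. With the block, which called 5.93% of all genes higher and 6.98% lower, 22 respiratory chain, 15 cytosolic ribosomal and 7 import genes rose. In that fit 1 respiratory chain and 1 cytosolic ribosomal gene, 2 assembly genes, 1 genome gene and 1 translation factor fell. Between dorsal and ventral half-embryos 1 gene of these 8 lists was called, an import gene higher in dorsal half-embryos at stage 12. With the block 1 import gene was higher at each stage, and at stage 12 a translation factor and a respiratory chain gene were lower.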

How the data were processed

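Poly(A) RNA was sequenced as TruSeq V2 libraries on an Illumina HiSeq with 100-bp single-end reads, per the labels' protocols; the kit does not mark strand. TopHat2 2.09 and DESeq are named in the submitters' processing notes, without their roles. RPKM values were deposited by the authors, in 1 table for each stage, over JGI9.1 gene models with an average RPKM above 1, per the file headers. In 100% of rows the values were whole multiples of a common step (relative tolerance 1e-06), which gave the reads used here for depth.

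The groups follow the sample titles. limma 3.58.1 (R 4.3.3, trend option) was run on log2(RPKM + 1) over genes with an RPKM of at least 1 in at least 3 libraries, which all 93 and 91 members passed, with 15 libraries per stage in a group-means model, two-sided, and Benjamini-Hochberg adjustment over all genes. It was tested, without the block, on simulated data with independent libraries, so that test does not cover libraries paired by replicate number. The change between stages was fitted over 30 libraries and 14948 genes. Alternatives were a replicate block, a pseudocount of 0.1, no filter, upper-quartile scaling, quantile normalization and leaving out each library. Libraries were left out of the fit without the block only. Replicates differed by more than sampling noise (chi-square divided by its degrees of freedom 6.82 to 12.6).

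Replicate numbers pair samples by the control labels; for libraries with equal numbers, the lowest correlation of deviations from the group mean was 0.414 at stage 10.5 and 0.274 at stage 12, over 30 pairs each. The members, subunit assignments and lists were chosen with earlier results of these data known. Members named are the called ones (up to 8 per direction by smallest p, otherwise the 3 with smallest p), the 3 highest and lowest, the 3 widest and nearest homeolog pairs, and genes at set functional sites; others are said to be picked after their values were seen or called with the block. No role was assigned by sequence. MRPL50, MRPL58 and MRPS23 had no member row.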

Additional observations from a re-analysis of the deposited data

Results flagged for a closer look

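In 2 of the 39 members named, the difference between half-embryos and whole embryos had opposite signs at the 2 stages in all 3 replicate numbers. Both were named for a small p in the change of this difference between stages, a choice that favours opposite signs. How many of all genes had opposite signs was not counted. MRPL52 (Xelaev18007046m) was higher in half-embryos at stage 10.5 and lower at stage 12, a change of -1.03 ± 0.38 in log2(RPKM + 1) (SE; limma adjusted p = 0.498, and 0.110 with the replicate block). Whole embryos had 2.57, 3.47 and 5.64 RPKM at stage 10.5 and 11.8, 7.43 and 10.7 at stage 12, while half-embryos averaged 6.95 ± 2.16 and 7.74 ± 2.03 (SD, n = 12), from medians of 22 and 20 reads. In the other model of MRPL52, Xelaev18010239m, the change was 0.16 ± 0.51 (SE). mrpl47.L, for a large-subunit protein, changed by -0.56 ± 0.21 (SE; limma adjusted p = 0.510, and 0.151 with the block), with 7.90 ± 0.21 RPKM in whole embryos and 10.4 ± 1.6 in half-embryos at stage 10.5 and 18.5 ± 1.6 and 15.96 ± 3.0 at stage 12. The change was tested as an interaction and passed the threshold in neither gene.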

How the results depend on the processing

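With the replicate number as a block, 15 members were called at stage 10.5 for half-embryos against whole embryos. For sagittal, dorsal and ventral half-embryos the counts were 11, 9 and 7. At stage 12 they were 4, 2, 1 and 1 in the same order. Of all genes, these fits called 30.4%, 22%, 25.3% and 17.4% at stage 10.5. At stage 12 they called 12.9%, 8.48%, 6.68% and 11.1% of all genes. The block changed no count of members in the other comparisons. Upper-quartile scaling and quantile normalization each called 1 member, MRPS18A, for half-embryos at stage 12. Over all genes they called 304 and 330 higher and 181 and 230 lower there, where the main fit called 217 and 217. At stage 10.5 they called 7 and 8 members for half-embryos against whole embryos, where the main fit called 6. Quantile normalization called 3 for sagittal half-embryos at stage 10.5, where the main fit called 2. Over all genes it called 239 higher and 220 lower there, and the main fit 146 and 306. A pseudocount of 0.1 and no filter moved no count by more than 1.5 times. Leaving out 1 library gave 1 to 7 members for half-embryos, 1 to 3 for sagittal, 0 to 4 for dorsal and 0 to 2 for ventral half-embryos at stage 10.5, and 0 to 4, 0 to 4, 0 to 0 and 0 to 1 at stage 12; all other comparisons stayed at 0. The lowest count for half-embryos at stage 10.5, 1, was without whole-embryo replicate 3 (3 without replicate 1), and the highest at stage 12, 4, without whole-embryo replicate 2. The shares of all genes called in the fits that left out 1 library are not given here. No named member changed sign with a call. The 3 whole-embryo libraries and medians of 57 and 42 reads per gene limit what could be called.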
